A study of Mus musculus with 4 samples.

Results

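The genes for laminin chains, nidogens, integrin subunits, dystroglycan (Dag1), fibronectin (Fn1) and vitronectin (Vtn) were examined in bulk RNA-seq of the embryonic mouse telencephalon. Members were chosen by gene symbol alone: every row named Lama, Lamb or Lamc with a chain number, Nid1 or Nid2, Itga or Itgb with a subunit label, Dag1, Fn1 or Vtn. This gave 40 of the 27293 genes in the count table. The series holds 4 libraries of telencephalic tissue from C57BL/6 embryos at embryonic day 13 (E13), 2 labelled WT (WT 1 and WT 2) and 2 labelled STINGf/f;Nestin-Cre (STINGcKO 1 and STINGcKO 2). In the STINGcKO embryos both STING alleles are floxed and Cre is driven by the Nestin promoter, which is active in neural progenitor cells (NPCs) and hence acts in NPCs and the neurons and glia they give rise to. Meningeal, vascular and blood cells do not descend from NPCs and stay in the dissected tissue. The WT group is described by genotype only as WT, and the title of WT 2 carries another abbreviation ("nes") than that of WT 1 ("wt"), so whether it carried the Cre transgene is not given in the sources used here. The sources do not say whether a library is 1 embryo or a pool, so p-values measure the spread between libraries.

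Laminins are heterotrimers of an alpha, a beta and a gamma chain that polymerise into the sheet of a basement membrane, and nidogens link that sheet to type IV collagen. Integrins are alpha-beta heterodimers that bind laminin, fibronectin, vitronectin or collagen outside the cell and connect to actin inside it, and dystroglycan is a separate laminin receptor. In the developing cortex the endfeet of radial glia, the NPCs of the ventricular zone, attach through these receptors to the basement membrane under the meninges. The same families build the basement membrane of brain vessels.

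The counts on genes summed to between 17209654 and 18533391 per library, and the 40 genes took 0.126% of them in WT 1, 0.0961% in WT 2, 0.107% in STINGcKO 1 and 0.0971% in STINGcKO 2. Values below are counts or CPM, the count divided by the library's total on genes and multiplied by 1000000, and a count of 0 allows up to 3 counts, or 0.162 to 0.174 CPM, covering counting error only. The STING gene itself had 20, 19, 18 and 22 counts in WT 1, WT 2, STINGcKO 1 and STINGcKO 2, so the total count of the gene did not separate the genotypes, which are taken from the labels. The 4 Y-linked genes summed had 2735, 0, 3002 and 1848 counts in the same order, so WT 2 also differed from the other libraries in sex. Markers of cortical progenitors (10 genes) and cortical neurons (9 genes) were abundant in all 4 libraries, at summed levels of 2326 to 2556 CPM and 5501 to 6517 CPM. The meninges and mesenchyme markers (12 genes, none at 0 in any library) summed to 340 CPM in WT 1 against 78.4 in WT 2, 103 in STINGcKO 1 and 68.4 in STINGcKO 2. The choroid plexus markers (9 genes in the table, 1 of them at 0 in a library) summed to 62.5 CPM in WT 1 against 10.6, 7.40 and 8.90. WT 1 therefore stands apart from the other 3 libraries in the RNA of meninges and choroid plexus, so calls and the values of several lists are also given without it. In whole tissue, fewer cells of a type and less RNA per cell cannot be told apart.

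Each gene was compared between the 2 STINGcKO and the 2 WT libraries with edgeR's quasi-likelihood test, fitted on all genes. Of the 40 members, 36 passed the filter on low counts and were tested among 16145 genes. The other 4, the leukocyte integrin subunits Itgb2, Itgb7, Itgam and Itgax, had 13 counts or fewer in every library and were not tested. A gene was called at the thresholds of the study, a fold change of at least 2 with an unadjusted p of at most 0.05, and the stricter rule was a Benjamini-Hochberg adjusted p below 0.05.

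Itgb3, Lama2 and Lamc3 were lower in STINGcKO at the thresholds of the study, and no member was higher. These 3 of 36 tested members (8.33%) stand beside 0.811% of all genes tested that were called, of which most were lower (0.669% of all genes tested). Nid1 joined them at an unadjusted p of at most 0.05 without a fold limit, making 4 members (11.1%) against 1.23% of all genes tested. None of the 36 had an adjusted p under 0.05 by edgeR or DESeq2, and 0% of all genes tested had one by edgeR. The smallest adjusted p of any member was 0.9999 (edgeR). The median log2 fold change (STINGcKO against WT) was -0.24 over the 36 members and -0.01 over all genes tested, and 26 members (72.2%) lay below 0, compared with 52.1% of all genes tested. Both STINGcKO libraries lay below both WT libraries in 9 tested members (25%), compared with 11.2% of all genes tested, and above them in 3 (8.33%), compared with 10.4%. The 9 included Nid1, Nid2, Lama2, Lamc3, Itga2, Itga9, Itgb3 and Itgb5. The 3 were Lama3, Lamb3 and Itgae, of which Lamb3 passed the filter through its STINGcKO counts alone.

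**Figure D1:**
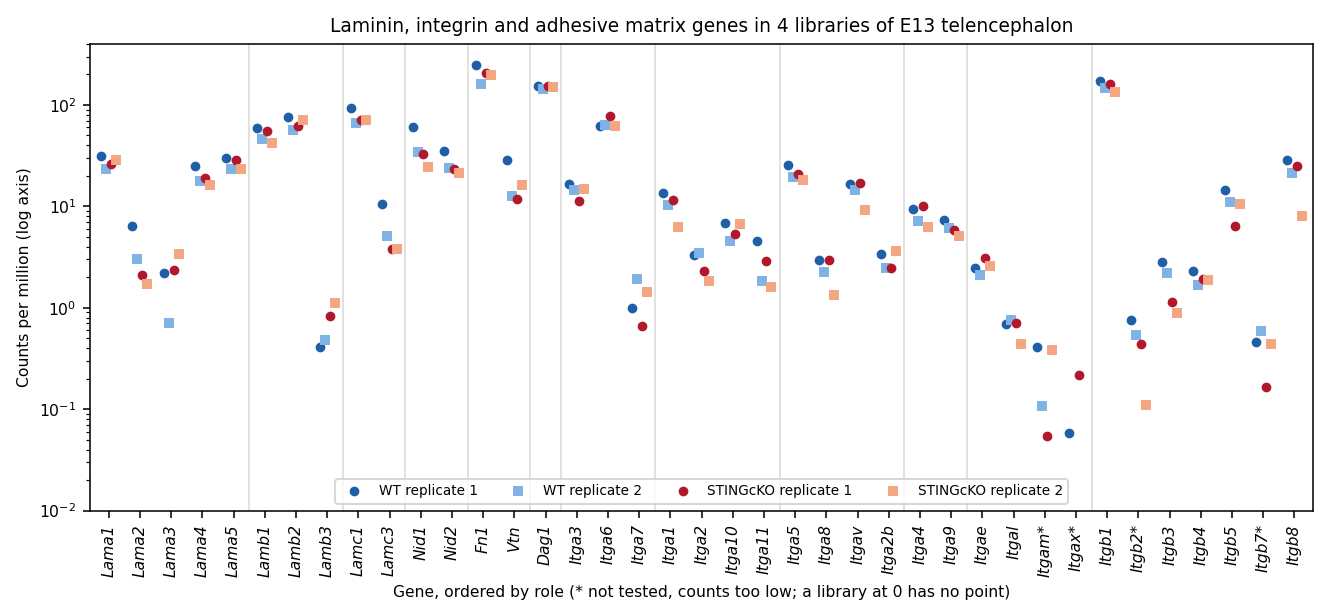
CPM (log axis) of 39 of the genes in the 4 libraries, ordered by role, with blue points for WT, red points for STINGcKO, circles for replicate 1 and squares for replicate 2; an asterisk marks the 4 genes with too few counts to test. Levels run from 203 CPM for Fn1, the mean of the 4 libraries, down to 0.0694 CPM for Itgax, and the dark blue circle of WT 1 is the highest point in 24 of the 35 tested genes shown.

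The calls changed when a library was left out. WT 1 was the highest of the 4 libraries in 24 of 36 tested members (66.7%), compared with 27.3% of all genes tested. It lay above WT 2 in 30 members (83.3%), compared with 54.4%. The median ratio of WT 1 to WT 2 was 1.32 over the members and 1.02 over all genes tested. Without WT 1, the WT group was WT 2 alone, assumed to vary like the STINGcKO libraries. WT 2 also differed in sex and in its title, and the part of these differences in values without WT 1 was not tested. In that fit the median log2 fold change of the same 36 members was -0.01. Of the 3 called members, 1, Itgb3, was still 2-fold lower in STINGcKO. Of the 2 members called without WT 1, neither was among these 3, and Lama3 was higher in STINGcKO. Without WT 2, with 1 WT library left and assumed to vary like the others, 5 members were called, Nid1 and Vtn being added, as were 2.81% of all genes tested in that fit. Without STINGcKO 2, no member and 0.712% of all genes tested were called, and without WT 1 the share of all genes tested was 0.621%.

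**Figure D2:**
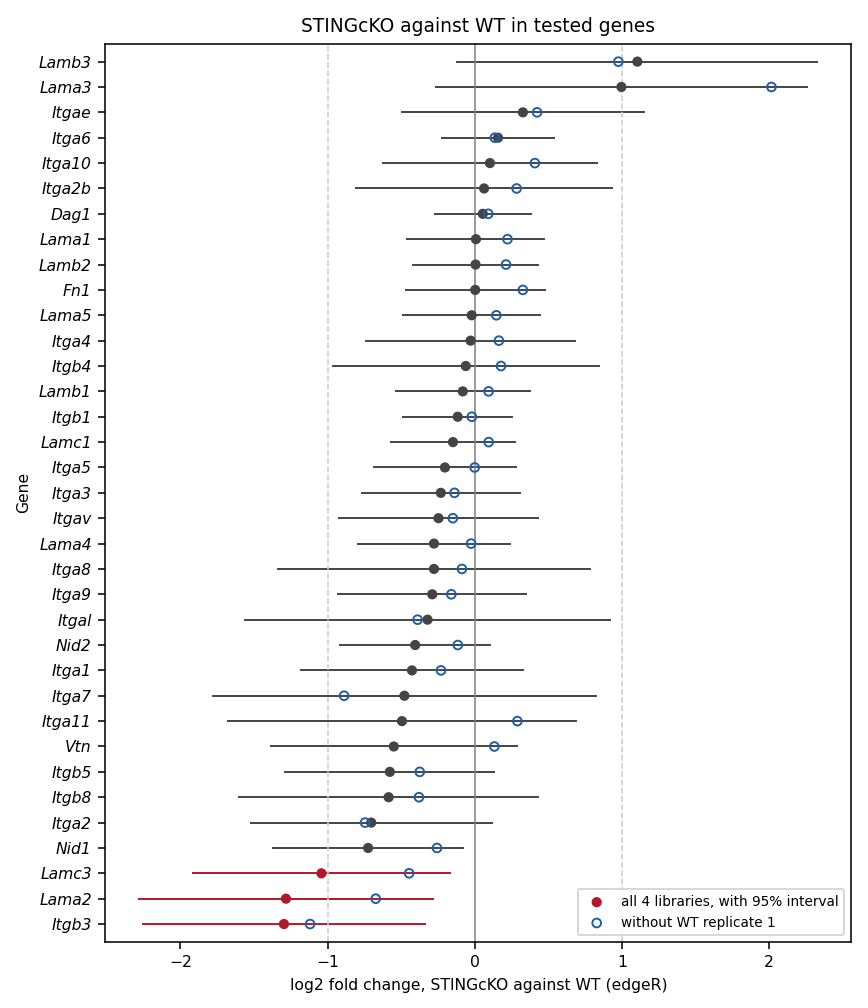
The log2 fold change of STINGcKO against WT for 35 tested genes (filled points, with 95% intervals from edgeR; red for the 3 genes called) and without WT replicate 1 (open points). The intervals of 31 of these genes include 0, and the open points of Lama2, Lamc3 and Nid1 lie closer to 0 than the filled ones, while that of Itgb3 stays below -1.

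Transcripts of laminin chains came mainly from Lamb1, Lamb2 and Lamc1, together with Lama1, Lama4 and Lama5. Levels in CPM per kilobase of exon (CPM per kb) allow a rough comparison of genes, since the length covers the exons of all annotated transcripts. On this scale the mean level was 10.9 for Lamb2, 9.11 for Lamc1, 5.10 for Lamb1, 2.83 for Lama1, 2.32 for Lama5 and 1.63 for Lama4. Lama1 is the alpha chain of the trimer known from early embryonic basement membranes, Lama5 and Lama4 are known from vessels, and Lamc1 is the gamma chain of most trimers. Lamc1 made up 85.1% of the summed gamma chain level in WT 1, 87.0% in WT 2, 91.1% in STINGcKO 1 and 92.5% in STINGcKO 2. Among alpha chains, Lama1 made up 37.9% to 43.4%, Lama5 30.4% to 35.3% and Lama4 up to 24.4% of the summed level across the libraries. The beta chains summed to 2.16 to 2.38 times the alpha chains, and the gamma chains to 1.31 to 1.53 times. On this rough scale the summed levels of the 3 kinds of chain differed in every library. The part of the annotated exon lengths in these ratios was not tested.

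**Figure D3:**
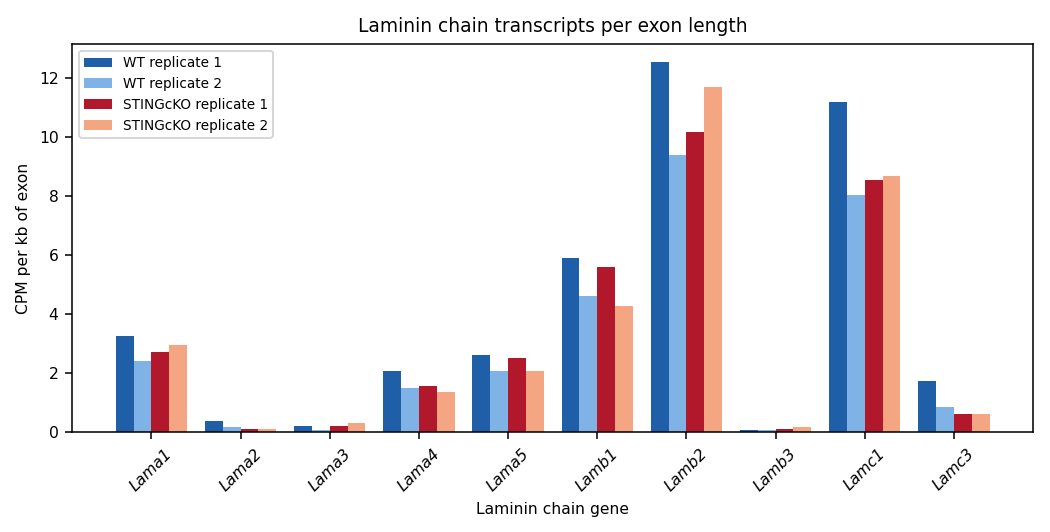
Level of 10 laminin chain genes in CPM per kb of exon, with 1 bar for each library (2 WT in blue, 2 STINGcKO in red). Lamb2 and Lamc1 are the tallest in every library, and Lamc3 and Lama2 are tallest in WT replicate 1.

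None of these 6 abundant chains met the thresholds. Lamc1 had 1592 counts in WT 1, 1232 in WT 2, 1288 in STINGcKO 1 and 1298 in STINGcKO 2, so both STINGcKO libraries lay between the WT libraries. Its level was 79.5 ± 18.4 CPM in WT and 71.2 ± 0.795 CPM in STINGcKO (SD, n = 2 each), a log2 fold change of -0.15 with a 95% interval from -0.57 to 0.27. Lamb2 had 1310, 1059, 1126 and 1284 counts in the same order (log2 fold change 0.01), again within the range of WT. Lamb1 had 1008, 847, 1012 and 768 counts (-0.08), Lama1 had 542, 434, 480 and 515 (0.01), and Lama5 had 514, 436, 525 and 425 (-0.02). Lama4 had 434, 332, 346 and 296 counts (-0.28, standard error 0.22), highest in WT 1, and -0.02 without it. The groups overlapped for all 6, and the 95% intervals of all 6 lay within a 2-fold change in either direction.

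Lama2, the alpha chain of muscle, nerve and vessel basement membranes, was called lower in STINGcKO. The gene lies on the minus strand of chromosome 10 (chr10:26980036-27619758, GRCm38). It had 109 counts in WT 1, 56 in WT 2, 38 in STINGcKO 1 and 31 in STINGcKO 2, so both STINGcKO libraries were below both WT libraries and WT 1 was far above WT 2 (2.10-fold in CPM). The level was 4.68 ± 2.34 CPM in WT and 1.90 ± 0.262 CPM in STINGcKO (SD, n = 2 each), a log2 fold change of -1.28 (standard error 0.43, unadjusted p = 0.018, adjusted p = 0.9999 from edgeR). Without WT 1 the log2 fold change was -0.67 (unadjusted p = 0.232 from edgeR), and without STINGcKO 2 it was -1.15 with an unadjusted p of 0.0592 (edgeR). Lama2 made up 4.53% and 2.97% of the alpha chain level per kb in WT 1 and WT 2, and 1.78% and 1.55% in STINGcKO 1 and STINGcKO 2.

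Lamc3, a minor gamma chain, behaved likewise across the libraries. The gene lies on the plus strand of chromosome 2 (chr2:31887291-31946539, GRCm38) and had 182 counts in WT 1, 95 in WT 2, 69 in STINGcKO 1 and 68 in STINGcKO 2. The level was 7.85 ± 3.85 CPM in WT and 3.77 ± 0.0175 CPM in STINGcKO (SD, n = 2 each), a log2 fold change of -1.04 (standard error 0.38, unadjusted p = 0.0253 and adjusted p = 0.9999 from edgeR). Without WT 1 the log2 fold change was -0.45 (unadjusted p = 0.344 from edgeR). Without STINGcKO 1 or STINGcKO 2 it was -1.03 in both fits, with unadjusted p of 0.0502 and 0.0511 (edgeR), just past the threshold. The exons of Lama2 and Lamc3 overlap antisense genes over 3.86% and 6.27% of their length, and the strand setting of the counting is not given in the sources used here.

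Lama3 and Lamb3, chains of an epithelial laminin, were scarce. Lama3 had 38 counts in WT 1, 13 in WT 2, 43 in STINGcKO 1 and 61 in STINGcKO 2, a log2 fold change of 1.00 with a 95% interval from -0.26 to 2.26. The 2 WT libraries differed 3.15-fold, more than the groups did. Without WT 1 the value was 2.02, with the 13 counts of WT 2 as the only WT value. Lamb3 had 7, 9, 15 and 20 counts, both STINGcKO libraries being above both WT libraries. Its log2 fold change was 1.11 (standard error 0.53, unadjusted p = 0.0705 from edgeR). It passed the filter through its STINGcKO counts alone, those of the group in which it was higher. With 10 counts needed in every library it was not tested. Neither was called with all 4 libraries and the filter used here, and Lama3 met the thresholds when genes with 1 count in 1 library were kept (unadjusted p = 0.02 from edgeR).

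The nidogens were both lower in both STINGcKO libraries than in either WT library, by less than 2-fold. Nid1 had 1053 counts in WT 1, 630 in WT 2, 592 in STINGcKO 1 and 446 in STINGcKO 2, with WT 1 far above the rest and WT 2 close to STINGcKO 1. The gene lies on the plus strand of chromosome 13 (chr13:13437551-13512269, GRCm38). The level was 47.6 ± 19.2 CPM in WT and 28.6 ± 5.52 CPM in STINGcKO (SD, n = 2 each), a log2 fold change of -0.72 (standard error 0.28, unadjusted p = 0.0321 and adjusted p = 0.9999 from edgeR). Without WT 1 it was -0.26, and without WT 2 it was -1.07 and met the thresholds (unadjusted p = 0.00112 from edgeR). Nid2 had 608, 445, 423 and 385 counts (-0.40, standard error 0.22), and -0.11 without WT 1. The exons of Nid2 share 8.45% of their length with Rtraf, a coding gene on the opposite strand, and those of Nid1 share 2.06% with an antisense gene.

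WT 1 also carried the most RNA of several other cell types, and their part in the values of Lama2, Lamc3 and the nidogens was not tested. All 10 tested markers of meninges and mesenchyme (collagens, Dcn, Lum, Foxc1 and others) were highest in WT 1, and 2 of them, Col1a1 and Col1a2, were called lower in STINGcKO, with log2 fold changes of -0.11 and 0.21 without WT 1. Of the choroid plexus markers 4 were tested, Htr2c through its WT counts alone, and all 4 were called lower in STINGcKO and highest in WT 1. Without WT 1 their log2 fold changes were 1.24 for Kcne2, -0.31 for Otx2, -0.67 for Aqp1 and -1.66 for Htr2c. The endothelial markers (10 genes, none at 0 in any library) summed to 233 CPM in WT 1, 168 in WT 2, 150 in STINGcKO 1 and 149 in STINGcKO 2. All 10 had a log2 fold change below 0 (median -0.49) and none was called at a 2-fold change. Flt1 and Cdh5 had an unadjusted p of 0.0217 and 0.0498 (edgeR). Without WT 1, 9 of the 10 lay below 0 (median -0.13). The mural cell markers (9 genes, 1 at 0 in a library) summed to 251, 191, 203 and 211 CPM. Of these sums Notch3 alone gave 124, 102, 118 and 128 CPM (log2 fold change 0.13). Of the 7 tested mural cell markers, 6 lay below 0 (median log2 fold change -0.30, and -0.12 without WT 1). Acta2 was the 1 called lower in STINGcKO, with a log2 fold change of -1.69, and -0.26 without WT 1. The erythroid markers (10 genes) summed to 1104, 589, 479 and 720 CPM. Microglia markers (10 genes) summed to 56.2, 40.9, 36.7 and 44.4 CPM. In each of these 2 lists 9 of 10 genes had a log2 fold change below 0, and 4 of 10 without WT 1. Markers of ventral telencephalon (10 genes) summed to 1167, 1084, 740 and 1132 CPM, lowest in STINGcKO 1. All 10 had a log2 fold change below 0 (median -0.20), and 9 did without WT 1 (median -0.19). Of these Gad1 had an unadjusted p of 0.0179 (edgeR), and none was called.

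**Figure D4:**
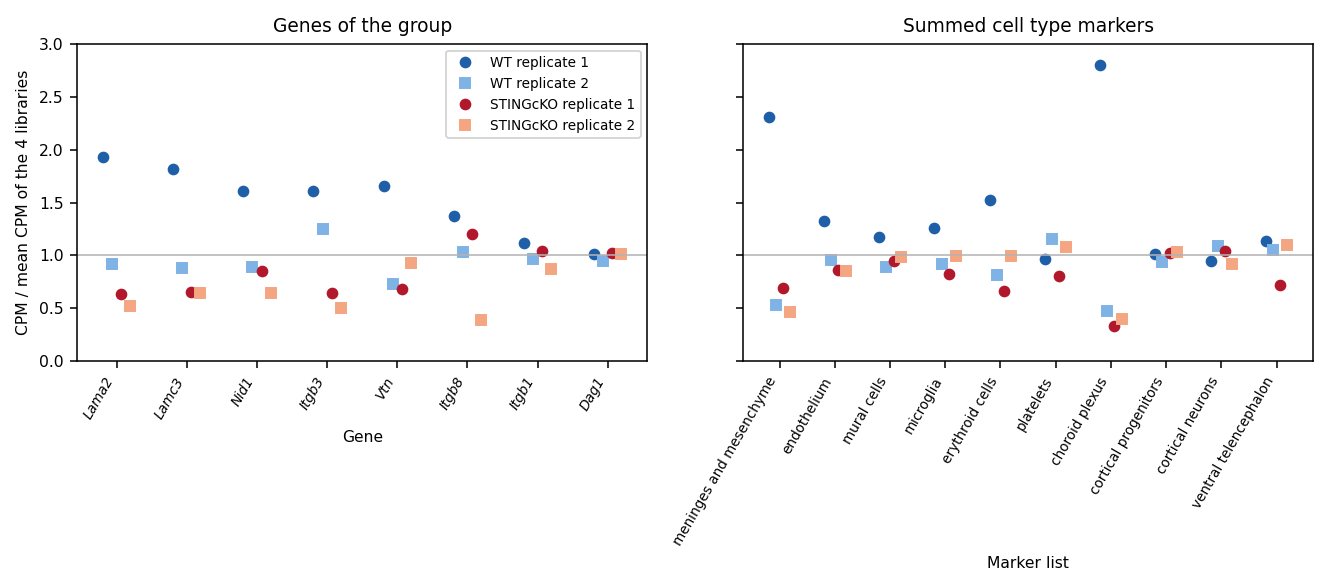
Level in each library divided by the mean of the 4 libraries, for 8 genes of the group chosen after their values were seen (left) and for the summed CPM of 10 cell type marker lists (right); blue is WT, red is STINGcKO, circles are replicate 1 and squares replicate 2. All genes shown but Dag1 are highest in WT replicate 1. The marker sums of meninges, choroid plexus, endothelium, mural cells, microglia, erythroid cells and ventral telencephalon are highest there too. Dag1 and the progenitor markers lie close to 1 in all libraries.

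Of the 4 members with an unadjusted p of at most 0.05, Lama2 and Nid1 have a promoter in the RefSeq table, and both are shown. Each is the 250 bases before the start of the RefSeq gene (GRCm38.p6), 5′ to 3′ on the strand of the gene, at chr10:27616943-27617192 (minus) and chr13:13437352-13437601 (plus). These RefSeq starts differ from the gene positions given above. By those positions the Lama2 stretch lies inside the gene and the Nid1 stretch ends inside it. Capitals mark a GC box (GGGCGG) or a CCAAT box (CCAAT), each searched on both strands.
Lama2: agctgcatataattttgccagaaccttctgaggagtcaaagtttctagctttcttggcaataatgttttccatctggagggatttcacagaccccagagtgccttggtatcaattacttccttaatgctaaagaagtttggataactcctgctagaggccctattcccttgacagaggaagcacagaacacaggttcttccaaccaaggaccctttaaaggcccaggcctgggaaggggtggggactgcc
Nid1: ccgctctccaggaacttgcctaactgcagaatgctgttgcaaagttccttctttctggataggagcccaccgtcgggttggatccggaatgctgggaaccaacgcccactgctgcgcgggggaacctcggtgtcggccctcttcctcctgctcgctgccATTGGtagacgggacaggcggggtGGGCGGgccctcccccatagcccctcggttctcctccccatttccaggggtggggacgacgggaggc
Nid1 holds 1 GC box and 1 CCAAT box, the latter read on the other strand, and 64.4% of its bases are G or C. Lama2 holds neither motif, nor a TATA box (TATAAA), and 47.2% of its bases are G or C. The median over all 32851 promoters of this length was 52.4%. Of the 40 members, 25 have at least 1 promoter in the table, with 28 promoters between them. A GC box was found in 12 of these 28 (10 members), compared with 32.7% of all promoters. A CCAAT box was found in 7 of the 28 (6 members), compared with 33.8%, and a TATA box in 1, that of Vtn, compared with 12.4%. The kappaB consensus, the motif named after the NF-κB factors that act downstream of STING, was found in 7.25% of all promoters and in 1 of the 28, of Lamb3. It is shown in capitals with the neighbouring bases, on the plus strand at chr1:193302007-193302036, in 1 of the 2 promoters listed for Lamb3. This stretch also lies inside the gene as positioned in the count table.
Lamb3: cacccagccaGGGAGTCTCCagaggtgagg
A match describes these letters only, and says nothing on binding.

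Fibronectin, a soluble and matrix protein bound by several integrins, was the most abundant member by counts. Fn1 had 4235 counts in WT 1, 2980 in WT 2, 3807 in STINGcKO 1 and 3544 in STINGcKO 2, so both STINGcKO libraries lay between the WT libraries. The level was 203 ± 60.3 CPM in WT and 202 ± 9.09 CPM in STINGcKO (SD, n = 2 each), a log2 fold change of 0.00 with a 95% interval from -0.47 to 0.48. Vitronectin, an adhesive protein of plasma and vessel walls, was less even. Vtn had 494 counts in WT 1, 236 in WT 2, 217 in STINGcKO 1 and 291 in STINGcKO 2, a 2.25-fold difference between the WT libraries, and STINGcKO 2 exceeded WT 2. Its log2 fold change was -0.55 (standard error 0.36, unadjusted p = 0.168 from edgeR), 0.13 without WT 1 and -1.001 without WT 2. Per kb of exon Fn1 had a mean level of 17.4 CPM and Vtn of 8.55 CPM.

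Dystroglycan had the most even values of the abundant members. Dag1 had 2629, 2644, 2796 and 2743 counts in WT 1, WT 2, STINGcKO 1 and STINGcKO 2. The level was 148 ± 7.14 CPM in WT and 152 ± 1.19 CPM in STINGcKO (SD, n = 2 each), a log2 fold change of 0.06 with a 95% interval from -0.27 to 0.38. Per kb it ranked second of the 40 members, at 23.6 CPM per kb. Of 29 genes for the glycosylation enzymes that prepare dystroglycan for laminin and for the proteins of its complex, 26 were tested and none was called in either direction (median log2 fold change -0.04). The lowest value was that of Dtna, a cytoplasmic partner of the complex, with 260, 305, 221 and 219 counts (-0.37), and the highest that of Dpm3, an enzyme subunit of mannose donor synthesis, with 148, 152, 138 and 220 counts (0.24).

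Among integrins, Itgb1 and the laminin-binding subunit Itga6 had the highest levels per kb. Itgb1, the beta subunit shared by most laminin, collagen and fibronectin receptors, had the highest level per kb of all 40 members, 37.6 CPM per kb. It had 2956 counts in WT 1, 2748 in WT 2, 2923 in STINGcKO 1 and 2411 in STINGcKO 2, and the groups overlapped (log2 fold change -0.12, 95% interval from -0.48 to 0.25). Itga6, an alpha subunit that pairs with it to bind laminin, had 1077, 1174, 1415 and 1125 counts. Its log2 fold change was 0.16 (95% interval from -0.22 to 0.54), and its mean level of 7.36 CPM per kb was the highest of all alpha subunits. Itga3, another laminin-binding alpha subunit, had 287, 268, 207 and 271 counts (-0.23), and Itga7, best known from muscle, had 17, 36, 12 and 26 counts (-0.48). For Itga7 replicate 2 exceeded replicate 1 about 2-fold in both groups, with ratios of replicate 1 to replicate 2 of 0.509 in WT and 0.458 in STINGcKO. Itgb4, the beta subunit of hemidesmosomes, had 31 to 40 counts in all 4 libraries (-0.06).

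The subunits that bind RGD ligands such as fibronectin and vitronectin gave 1 called gene. Itgb3, the beta subunit of the vitronectin receptor and of the platelet fibrinogen receptor, lies on the plus strand of chromosome 11 (chr11:104608000-104670476, GRCm38). It had 49 counts in WT 1, 41 in WT 2, 21 in STINGcKO 1 and 16 in STINGcKO 2. Both STINGcKO libraries were below both WT libraries, and WT 1 stood less far from WT 2 (1.29-fold in CPM) than in Lama2 or Lamc3. The level was 2.53 ± 0.449 CPM in WT and 1.02 ± 0.189 CPM in STINGcKO (SD, n = 2 each), a log2 fold change of -1.30 (standard error 0.42, unadjusted p = 0.0142 and adjusted p = 0.9999 from edgeR). Without WT 1 it was -1.12 (unadjusted p = 0.0914 from edgeR), without STINGcKO 2 it was -1.12 (0.0712), and DESeq2 gave -1.29 with an unadjusted p of 0.053. These counts are small, so the 95% interval runs from -2.25 to -0.34.

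The usual partners of Itgb3 were not called, and their groups overlapped. Itga2b, with which it forms the platelet receptor, had 58 counts in WT 1, 46 in WT 2, 45 in STINGcKO 1 and 65 in STINGcKO 2 (log2 fold change 0.06). Itgav, with which it forms the vitronectin receptor, had 288, 267, 307 and 168 counts (-0.25), low in STINGcKO 2 alone. The platelet markers (6 genes, of which 3 were tested and 1 was at 0 in 3 libraries) summed to 14.6, 17.4, 12.1 and 16.3 CPM. Gp1bb, a platelet receptor subunit, had 179, 266, 191 and 262 counts (log2 fold change 0.02), or 10.4, 14.4, 10.5 and 14.5 CPM, most of each sum. Pf4, a granule protein of platelets, was the 1 called among them, with 36, 15, 6 and 8 counts (-1.87, and -1.06 without WT 1). It passed the filter through its WT counts alone. Gp1ba, the other marker tested, had 21, 34, 17 and 20 counts (-0.58, and -0.85 without WT 1). Without WT 1 all 3 tested markers lay below 0. The part of platelets in the value of Itgb3 was not tested.

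Itgb5 and Itgb8 are among the other beta subunits that pair with Itgav. Itgb5 had 250 counts in WT 1, 203 in WT 2, 116 in STINGcKO 1 and 191 in STINGcKO 2, both STINGcKO libraries being below WT (log2 fold change -0.58, standard error 0.31, unadjusted p = 0.0978 from edgeR), and -0.37 without WT 1. Itgb8, which in NPCs is known for activating TGF-beta beside brain vessels, had 490, 396, 456 and 146 counts. Here 1 library was far from the other 3, with STINGcKO 1 above STINGcKO 2 by 3.10-fold in CPM, and the level was 24.9 ± 5.02 CPM in WT and 16.5 ± 11.97 CPM in STINGcKO (SD, n = 2 each). The log2 fold change was -0.58 (95% interval from -1.60 to 0.43), 0.02 without STINGcKO 2, and -1.60 without STINGcKO 1 (adjusted p = 0.041 from edgeR). That fit, which has 1 STINGcKO library assumed to vary like the WT libraries, was the only one among those run that gave a member an adjusted p under 0.05, and 105 genes in all (0.621% of those tested) had one in it. Itga5, the alpha subunit of the main fibronectin receptor, had 443, 360, 377 and 331 counts (-0.20, 95% interval from -0.68 to 0.28), and Itga8 had 51, 42, 54 and 24 (-0.28).

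Ratios between the STINGcKO libraries went with exon length over all genes. Over 16098 tested genes with a length and counts in every library, the median ratio of STINGcKO 1 to STINGcKO 2 was 0.870 below 2000 bases of exon, 0.948 from 2000 to 5000, 1.08 from 5000 to 10000 and 1.24 from 10000 bases up. Among the members it was 1.13 for the 5 under 5000 bases, 1.06 for the 22 from 5000 to 10000 and 1.23 for the 9 of 10000 or more. Itgb8 and Itgav, with 11060 and 10744 bases, had ratios of 3.10 and 1.81, whereas Lama3 and Fn1, with 10745 and 11685, had 0.699 and 1.07. Of the shorter genes, Itgb5 had 0.602 and Itgb1 1.20. These 6 were chosen after their values were seen. The rank correlation (Spearman) of ratio and exon length across genes, which share 2 libraries, was 0.305 over these genes and 0.359 over the 36 members. For WT 1 against WT 2 it was -0.0885 and -0.00103. The part of length in the value of any single member was not tested. STINGcKO 2 was the lowest library in 21 of 36 tested members (58.3%) and in 35.1% of all genes tested.

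The collagen-binding and remaining alpha subunits were scarcer, and none was called. Itga2 had 57 counts in WT 1, 64 in WT 2, 42 in STINGcKO 1 and 33 in STINGcKO 2 (log2 fold change -0.70, standard error 0.35, unadjusted p = 0.0828 from edgeR), with close replicates in both groups and no overlap. Its value without WT 1 was -0.75. Itga1 had 235, 192, 211 and 112 counts (-0.43), Itga10 had 117, 84, 98 and 121 (0.10), and Itga11 had 79, 34, 53 and 29 (-0.49, and 0.29 without WT 1). Of the exon length of Itga10, 33.5% is shared with the overlapping gene Gm42957 on the same strand, so its count is uncertain. Itga9, a receptor for tenascin and other ligands, had 127, 113, 106 and 93 counts (-0.29), both STINGcKO libraries being just below WT, and Itga4 had 163, 134, 183 and 113 (-0.03).

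The leukocyte integrins were scarce. Itgae, the alpha subunit of T cells in epithelia, had 42 counts in WT 1, 39 in WT 2, 56 in STINGcKO 1 and 47 in STINGcKO 2 (log2 fold change 0.33, standard error 0.36), and Itgal had 8 to 14 counts in all libraries. Itgb2, the beta subunit of leukocytes, had 13, 10, 8 and 2 counts, and Itgb7 had 8, 11, 3 and 8. Itgam had 1 to 7 counts and shares 68.7% of its exon length with Gm49368 on the same strand, and Itgax had no counts in WT 2 and STINGcKO 2, which allows up to 0.166 CPM in STINGcKO 2.

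Genes next to these families were read from lists of the pathway. Of 28 adaptors and kinases that connect integrins to actin, 26 were tested and none was called (median log2 fold change -0.02). The lowest value was that of Ptk2b, a focal adhesion kinase relative, with 40, 38, 34 and 32 counts in WT 1, WT 2, STINGcKO 1 and STINGcKO 2 (-0.26), and the highest that of Actn1, an actin cross-linker, with 1095, 1022, 1115 and 1223 (0.13). Of 22 other basement membrane genes, 21 were tested, 19 had a log2 fold change below 0 and 1 was called lower (median -0.31). Without WT 1, 10 of the 21 lay below 0 and the median was 0.01. The gene called was Npnt, nephronectin, the ligand of the receptor of Itga8 and Itgb1, with 171, 109, 79 and 55 counts. Its log2 fold change was -1.09 (standard error 0.36, unadjusted p = 0.0156 from edgeR), and -0.68 without WT 1. In this list 20 of 21 genes were higher in WT 1 than in WT 2. The highest value in it was that of Fbln1, a fibulin, with 1250, 1096, 1265 and 1473 counts (0.21).

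Of 20 other matrix ligands of integrins, 18 were tested and 1 was called lower (median log2 fold change -0.25, and -0.05 without WT 1). Thbs2, a thrombospondin of mesenchyme and astrocytes, had 19 counts in WT 1, 29 in WT 2, 3 in STINGcKO 1 and 10 in STINGcKO 2, a log2 fold change of -1.87 (standard error 0.64, unadjusted p = 0.0188 from edgeR) that was -2.11 without WT 1. The value was no smaller without WT 1, and the counts were few. The highest value in this list was that of Ecm1, a secreted matrix protein, with 241, 253, 234 and 329 counts (0.18). No gene of the 4 lists was called higher in STINGcKO, and none had an adjusted p under 0.05 by edgeR.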

How the data were processed

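The authors extracted total RNA of E13 telencephalic tissue with TRIzol, sequenced it on a HiSeq instrument and deposited raw counts of reads per gene for 4 libraries. Per the labels, the processing notes name Bowtie2 2.2.3, TopHat2 2.0.12, HTSeq 0.6.0 and build mm9. However, 97.3% of 27232 gene positions in the table start or end within 1 base of GENCODE M21, so positions were read as GRCm38. Strand and duplicate handling are not given in the sources used here. A second table of STINGcKO 1 and WT 1 held identical counts, with CPM values made by the authors that were not used, and the authors' mean normalized signal, fold changes and p-values were not used either. Of 27304 rows, 11 without a gene name (0.0403%) were left out.

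The quasi-likelihood test of edgeR 4.0.16 (R 4.3.3) was run on the counts after TMM scaling and filterByExpr, with no covariate and Benjamini-Hochberg adjustment over 16145 genes. Alternatives were other scalings and filters, DESeq2 1.42.0, a replicate block, a stricter p and leaving out each library. An exact permutation test of 2 against 2 libraries cannot give a two-sided p below 1 in 3. Intervals are edgeR's estimate with its t quantile (scipy 1.17.1). The procedure was also run on simulated counts with changes larger than 2-fold and no outlying library. It was not tested for changes near 2-fold or for a library like WT 1. Levels per kb used exon lengths of GENCODE M21, the bases covered by any annotated exon of a gene. Genes with many or long annotated transcripts are thereby given lower levels. The members and gene lists were chosen with earlier results of these data known. Values are given for the 15 members with the highest mean CPM, members called, members whose groups did not overlap with an absolute log2 fold change of at least 0.3, tested members whose replicates differed at least 2-fold, the highest per length in each role, and the extreme genes of each list. Other members, Pf4, Gp1bb, Gp1ba, Notch3 and Acta2 were added after their values were seen. Symbols that match the rule but have no row in the table were not analysed here. The values of 1 member are not reported here, although the counts over members include it.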

Additional observations from a re-analysis of the deposited data

How the results depend on the processing

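The number of members called at the study's thresholds was 2 to 4 under other scalings, both filters, DESeq2 and the replicate block. It was 0 at an unadjusted p of at most 0.01 and ranged from 0 (without STINGcKO 2) to 5 (without WT 2) when 1 library was left out. Members with an adjusted p under 0.05 ranged from 0 to 1 when a library was left out. Over all genes, 131 were called with all libraries, 405 when 1 count in 1 library sufficed, 72 when every library needed 10 counts, 82 with DESeq2, 14 at an unadjusted p of at most 0.01, and 104 to 531 with a library left out. The number with an adjusted p under 0.05 was 65 when 1 count sufficed and 0 to 116 with a library left out. The median log2 fold change of the members ranged from -0.33 to -0.0192 with a library left out, each over the members that passed the filter in that fit. Members with groups that did not overlap numbered 11 to 14 under other scalings and filters, and 22 to 30 with a library left out. Over the same 36 members this was 55.6% to 80.6%, compared with 48.3% to 75.3% of all genes tested, since 3 libraries part more easily than 4. The TMM-scaled count of 13 was added after the data were seen.

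The replicate numbers did not pair the libraries by their labels, and the deviations of same-numbered libraries from their group means correlated at 0.138 over all genes tested and -0.0469 over the members. With the replicate block, 3 members were called, 208 genes in all were called, and 5 genes, none of them a member, had an adjusted p under 0.05 (edgeR). In that fit Lama3 (1.10) was called and Lamc3 (-0.97) was not.

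With library totals as the scale, the log2 fold changes of Fn1 (-0.00815), Lama1 (-0.00316) and Lamb2 (-0.00602) changed sign, all 3 being close to 0 with TMM. With 1 library left out, 18 members changed sign. Their lowest and highest values were -0.25 and 0.33 for Fn1, -0.14 and 0.41 for Itga10, -0.99 and 0.29 for Itga11, -0.23 and 0.32 for Itga2b, -0.39 and 0.28 for Itga4, -0.37 and 0.000276 for Itga5, -1.14 and 0.12 for Itga7, and -0.95 and 0.19 for Itga8. They were -0.72 and 0.13 for Itgav, -0.24 and 0.0147 for Itgb1, -0.26 and 0.18 for Itgb4, -1.60 and 0.0187 for Itgb8, -0.17 and 0.22 for Lama1, -0.16 and 0.15 for Lama5, -0.27 and 0.10 for Lamb1, -0.16 and 0.21 for Lamb2, -0.34 and 0.10 for Lamc1, and -1.001 and 0.13 for Vtn. The cause of these changes was not tested. With 2 libraries per group and members down to 7 counts in a tested library, the 95% intervals of 17 tested members reach past a 2-fold change.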

Other observations

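Ilk, the kinase-like adaptor that binds the tail of Itgb1, had 4 counts in WT 1 and none in the other 3 libraries, which allows up to 0.166 CPM in STINGcKO 2. In GENCODE M21, 76.7% of the exon length of Ilk is shared with Taf10 on the opposite strand and 12.9% with Rrp8. Whether reads in this shared stretch were left uncounted was not tested.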
